A study of Mus musculus with 16 samples.

Results

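Expression of 10 genes of the Notch pathway was followed in cultured mouse astrocytes, namely the receptors Notch1, Notch2 and Notch3, the ligands Dll1, Dll3 and Jag1, and the target genes Hes1, Hes5, Hey1 and Heyl. The genes were chosen by symbol, with earlier results of these data known. All 10 were among the 16707 genes of the deposited expression table. Astrocytes were selected with beads against the surface antigen ACSA-2 from the brains of pups at postnatal day 6 by the labels (1 passage of the study's text gives newborn pups), either WT (C57BL/6J) or Nlrx1-/-, which lack the mitochondrial innate immune regulator NLRX1. Cultures came from 4 WT and 4 Nlrx1-/- litters and were grown without serum in medium with HB-EGF. From each litter, 1 library came from cells given vehicle (H2O). Another came from cells given lipopolysaccharide at 500 ng/mL with interferon γ at 10 ng/mL (LPS+IFNγ). Poly-A RNA was sequenced after 24 h. The 16 libraries thus formed 4 groups of 4, with treatment paired within a litter and each litter belonging to 1 genotype. The WT mice were bought and the Nlrx1-/- line came from another laboratory, so that differences between the colonies cannot be told apart from the genotype.

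Notch receptors on one cell are activated by Delta-like or Jagged ligands on a neighboring cell. Cleavage of the activated receptor by ADAM proteases and then by γ-secretase frees its intracellular domain, which joins the DNA-binding protein RBPJ and Mastermind coactivators to switch on target genes, chiefly the Hes and Hey repressors. In the developing brain the pathway maintains neural progenitors and favors glial fates, and astrocytes keep Notch receptors and several Hes and Hey genes active.

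Between 27259420 and 43752903 reads were assigned per library. Nlrx1, the deleted gene, was at 16.8 to 21.7 CPM (read counts scaled to library size) in the 8 WT libraries and at 2.07 to 7.75 CPM in the 8 Nlrx1-/- libraries, without overlap. All 8 astrocyte markers examined were present, with summed levels in WT libraries of 6062 to 9808 CPM (vehicle) and 5825 to 8818 CPM (stimulated), and in Nlrx1-/- libraries of 4854 to 7586 CPM (vehicle) and 5038 to 6755 CPM (stimulated). Of 7 microglial markers, Aif1, Cx3cr1, Csf1r, Itgam and Tmem119 were absent from the table, with at most 12 reads in any library. All 8 oligodendrocyte lineage markers were present, with summed levels of 2712 to 3361, 2214 to 2953, 2819.6 to 3733 and 2135 to 2799.7 CPM in the same order of groups. Nlrx1-/- litters 2 and 4 stood apart from the other 6 litters. Their vehicle libraries had Mbp, a myelin gene, at 2.49 and 3.0 log2 CPM against 5.93 to 7.84 elsewhere, and Gfap at 7.37 and 8.35 log2 CPM against 9.51 to 11.34 elsewhere. Results that rest on these litters are therefore given with and without them.

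With length taken into account, the members spanned a wide range of levels. In WT vehicle cultures Dll1 was at 134 ± 20.9 TPM (length-corrected transcript abundance; mean ± SD, n = 4), Hes5 at 114 ± 32.3, Notch1 at 110 ± 6.73, Hey1 at 63.2 ± 8.12, Dll3 at 62.8 ± 7.27, Notch2 at 46.5 ± 2.90, Hes1 at 43.6 ± 7.52, Notch3 at 27.4 ± 2.92, Jag1 at 5.32 ± 0.97 and Heyl at 1.14 ± 0.14 TPM. Within this order the libraries of neighbors overlapped among Dll1, Hes5 and Notch1, between Hey1 and Dll3, and between Notch2 and Hes1. Notch1 was thus the most abundant of the 3 receptors, and Dll1 the most abundant of the 3 ligands. The means of Jag1 and Heyl lay below those of all other members in every group. Single libraries overlapped in stimulated Nlrx1-/- cultures, with Jag1 at 11.2 TPM in litter 1 and Hes5 at 10.8 TPM in litter 2. The order differed after stimulation. Notch1 led in both genotypes, at 101 ± 13.1 TPM in WT and 87.5 ± 5.03 TPM in Nlrx1-/- cultures, and its libraries no longer overlapped those of Dll1 in Nlrx1-/- cultures, where Dll1 was at 43.5 ± 11.2 TPM. Hes5 had the second-highest mean in both vehicle groups, was at 62.6 ± 33.0 TPM in stimulated WT cultures, and lay lower in stimulated Nlrx1-/- cultures, at 23.9 ± 17.1 TPM, where its libraries overlapped those of Notch2 above it and Dll3 below it.

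**Figure D1:**
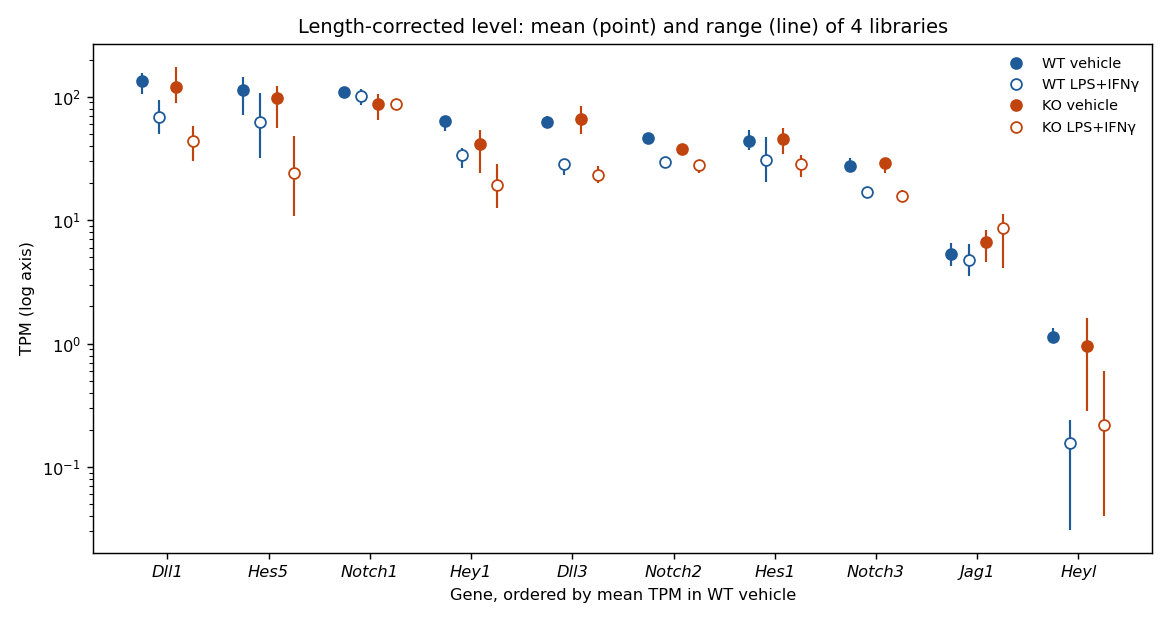
Level of each member in TPM on a log axis, as the mean (point) and range (line) of 4 libraries in each of the 4 groups, ordered by the mean in WT vehicle. Notch1 stays near 100 TPM in all groups, from 86.8 to 110 TPM, while the open points (LPS+IFNγ) of the other members, except Jag1 in Nlrx1-/- cultures, lie below the filled points (vehicle) of the same color.

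LPS+IFNγ lowered most members in both genotypes. In WT astrocytes 8 of the 10 fell and 0 rose (edgeR, quasi-likelihood test with litter as block, adjusted p below 0.05), where 20.2% of the 16066 genes tested fell and 23.7% rose. In Nlrx1-/- astrocytes the same 8 fell, namely Notch2, Notch3, Dll1, Dll3, Hes1, Hes5, Hey1 and Heyl, and Notch1 and Jag1 rose, against 24.2% of all genes falling and 25.3% rising. The median log2 fold change of the members was -0.59 in WT and -0.83 in Nlrx1-/- cultures, and that of all genes was -0.02 and -0.03. Each of the 8 that fell was lower in 4 of 4 litters of both genotypes, a pattern that 30.0% of all genes showed in WT and 29.0% in Nlrx1-/- litters. The libraries of the treatments did not overlap for 5 members in WT (Notch2, Notch3, Dll3, Hey1 and Heyl) and for 5 in Nlrx1-/- litters (Notch2, Notch3, Dll1, Dll3 and Hes5), lower in each case, where 17.6% of all genes were separated downward in WT and 14.4% in Nlrx1-/- litters, and 20.2% and 17.6% upward. The direction of these 8 held under every alternative run, and all 8 were still called in the Nlrx1-/- litters when litters 2 and 4 were left out. The scaling mattered for the other two. When library size alone was used without TMM factors, the median of all genes moved to -0.18 in WT and -0.19 in Nlrx1-/- cultures and the calls over all genes moved from 3813 up and 3240 down to 2433 up and 5384 down in WT, and from 4057 up and 3886 down to 2657 up and 5887 down in Nlrx1-/- cultures. Under that scaling 8 members still fell in each genotype and 0 rose.

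**Figure D2:**
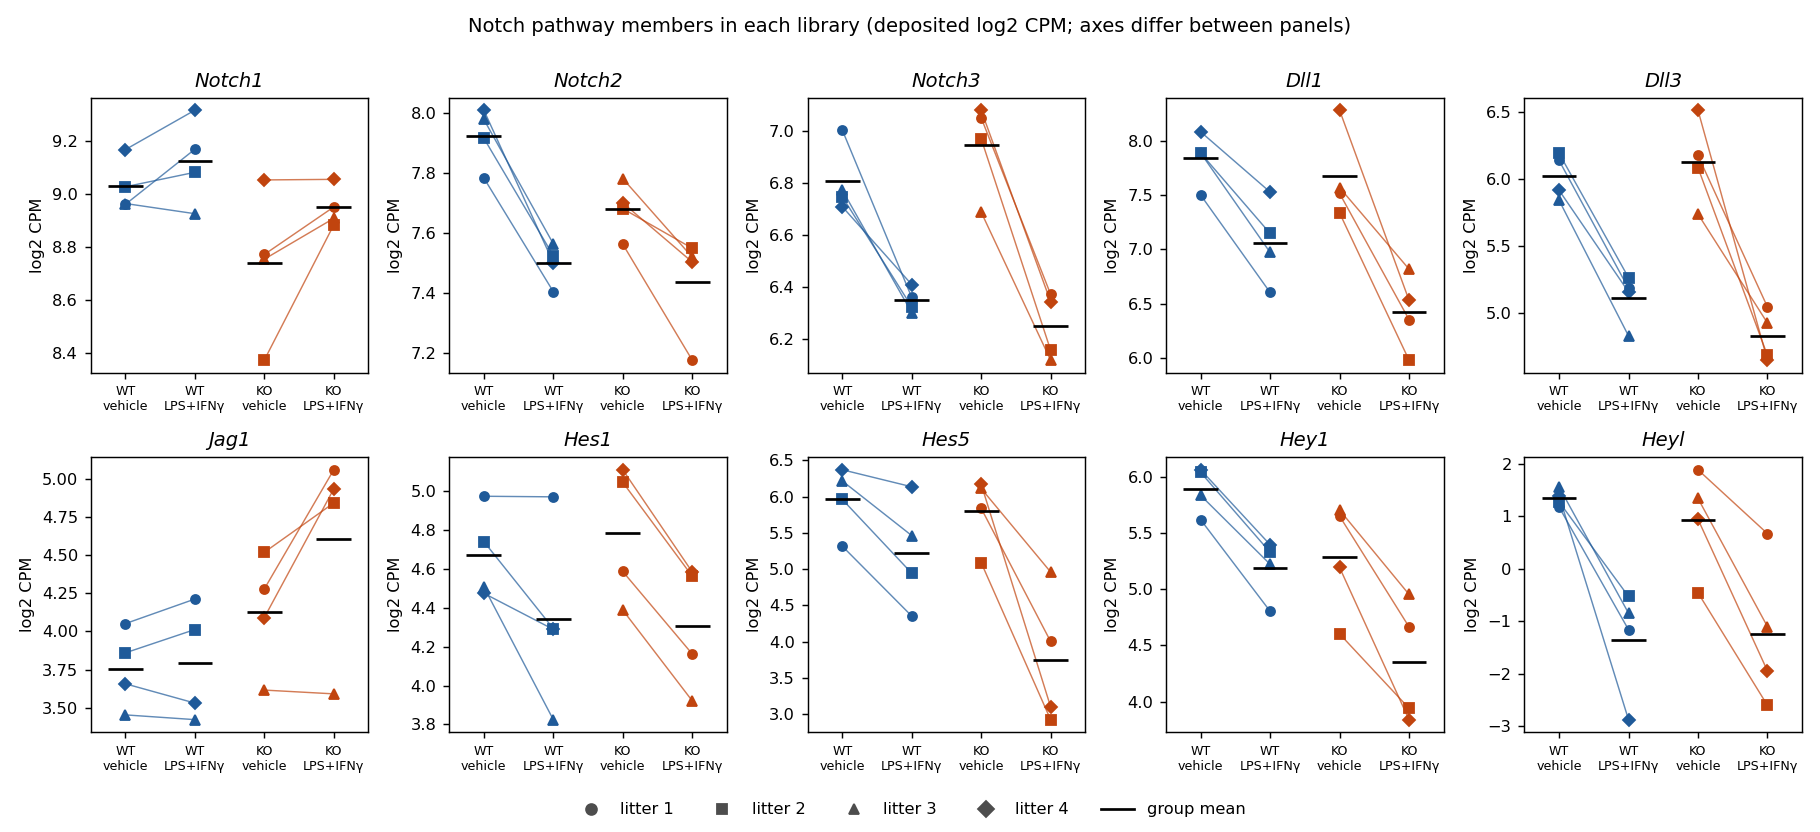
Deposited log2 CPM of the 10 members in each of the 16 libraries, with lines joining the vehicle and LPS+IFNγ libraries of a litter and bars at group means, and with a separate axis for each gene. Lines descend in all litters for Notch2, Notch3, Dll1, Dll3, Hes1, Hes5, Hey1 and Heyl, and the Hes5 lines of Nlrx1-/- litters 2 and 4 end lowest, at 2.92 and 3.10 log2 CPM.

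The promoter sequences of the members that fell and had a window are shown, since Hes5, a known RBPJ target, is among them. RefSeq windows of 300 bases, 250 before and 50 after the annotated start, were found for 7 members (8 windows, with 2 for Dll1), and each matched GRCm39 at 1 place, while Hes1, Hey1 and Heyl had none in the table used. They were searched on both strands for TGGGAA, the core of the RBPJ site, and for CACNAG, the N box bound by Hes repressors. TGGGAA occurred in the Hes5 window at 2 places, from -226 to -221 on the minus strand and from -82 to -77 on the plus strand relative to the gene, counting the start as 0, and in no window of Notch1, Notch2, Notch3, Dll1, Dll3 or Jag1. In all, 25.6% of 32851 promoters of this length held it. CACNAG was held by the windows of Notch1, Notch2, Notch3 and 1 of the 2 of Dll1, and by 42.5% of all promoters. In the windows of Hes5 (chr4:155045130-155045429, plus strand), Notch2 (chr3:97920604-97920903, plus strand), Notch3 (chr17:32385815-32386114, minus strand), Dll1 (chr17:15596036-15596335 and chr17:15597145-15597444, minus strand) and Dll3 (chr7:28001161-28001460, minus strand), written 5′ to 3′ along the gene, capitals mark TGGGAA or its reverse complement, which only the Hes5 window holds among those searched.
Hes5: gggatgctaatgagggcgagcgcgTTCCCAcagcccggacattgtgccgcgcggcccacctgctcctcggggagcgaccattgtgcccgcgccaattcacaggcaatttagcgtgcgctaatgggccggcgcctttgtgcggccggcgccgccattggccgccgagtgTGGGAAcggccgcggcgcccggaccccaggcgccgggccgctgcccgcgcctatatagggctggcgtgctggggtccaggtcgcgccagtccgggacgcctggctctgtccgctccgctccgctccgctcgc
Notch2: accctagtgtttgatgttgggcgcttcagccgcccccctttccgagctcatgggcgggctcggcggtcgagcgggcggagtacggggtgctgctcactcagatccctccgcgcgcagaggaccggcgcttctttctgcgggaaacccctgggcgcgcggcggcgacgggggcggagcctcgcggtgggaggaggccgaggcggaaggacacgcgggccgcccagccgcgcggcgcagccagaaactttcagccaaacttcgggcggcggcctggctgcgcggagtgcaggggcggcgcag
Notch3: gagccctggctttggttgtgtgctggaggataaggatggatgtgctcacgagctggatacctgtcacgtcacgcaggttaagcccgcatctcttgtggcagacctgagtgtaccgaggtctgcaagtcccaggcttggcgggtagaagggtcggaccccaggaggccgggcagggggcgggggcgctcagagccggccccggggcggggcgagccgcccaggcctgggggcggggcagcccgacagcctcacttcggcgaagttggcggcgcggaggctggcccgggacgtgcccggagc
Dll1, window 1: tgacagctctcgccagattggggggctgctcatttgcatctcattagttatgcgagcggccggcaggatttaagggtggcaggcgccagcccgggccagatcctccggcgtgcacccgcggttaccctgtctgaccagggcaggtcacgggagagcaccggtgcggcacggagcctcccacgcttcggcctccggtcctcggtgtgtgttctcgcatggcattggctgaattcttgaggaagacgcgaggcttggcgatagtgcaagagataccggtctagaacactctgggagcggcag
Dll1, window 2: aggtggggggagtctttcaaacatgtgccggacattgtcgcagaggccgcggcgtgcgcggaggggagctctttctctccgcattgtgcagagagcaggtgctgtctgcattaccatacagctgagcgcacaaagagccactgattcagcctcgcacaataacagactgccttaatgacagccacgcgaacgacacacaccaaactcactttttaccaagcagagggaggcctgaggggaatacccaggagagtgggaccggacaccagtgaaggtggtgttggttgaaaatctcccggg
Dll3: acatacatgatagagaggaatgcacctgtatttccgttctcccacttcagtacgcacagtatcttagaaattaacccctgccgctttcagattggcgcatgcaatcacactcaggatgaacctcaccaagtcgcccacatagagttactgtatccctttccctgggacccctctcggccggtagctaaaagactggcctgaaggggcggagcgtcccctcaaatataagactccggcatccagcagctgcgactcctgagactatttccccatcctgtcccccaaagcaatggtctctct
A match of these letters is a description of the window and does not show that a factor was bound there.

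Among the receptors, Notch2 and Notch3 fell and Notch1 did not. Notch1, on chromosome 2, was at 498, 522, 499 and 575 CPM in the vehicle libraries of WT litters 1 to 4 and at 576, 542, 486 and 638 CPM in their LPS+IFNγ libraries. In Nlrx1-/- litters 1 to 4 it was at 437, 331, 432 and 531 CPM with vehicle and at 495, 472, 480 and 532 CPM with LPS+IFNγ. The groups overlapped in both genotypes, and the lowest library of all was the vehicle library of Nlrx1-/- litter 2. In CPM, Notch1 was higher with LPS+IFNγ in 3 of 4 WT litters and in 4 of 4 Nlrx1-/- litters, and 29.6% of all genes were higher in every Nlrx1-/- litter. In TPM this did not hold, with Nlrx1-/- litter 4 at 105.9 with vehicle and 92.2 with LPS+IFNγ. The mean TPM with vehicle and LPS+IFNγ was 110 and 101 in WT, and 86.8 and 87.5 in Nlrx1-/- litters. The log2 fold change was 0.08 (SE 0.07, edgeR adjusted p = 0.398) in WT and 0.20 (SE 0.07, adjusted p = 0.0484) in Nlrx1-/- astrocytes. The latter call lay close to the threshold. It was lost without the litter block (adjusted p = 0.233), with RLE normalization (adjusted p = 0.0556), without TMM factors (0.03, against -0.19 for the median gene), and without any 1 of the WT litters (adjusted p from 0.0548 to 0.0671). It was also lost without Nlrx1-/- litter 1 (adjusted p = 0.0855), litter 2 (0.10, adjusted p = 0.217), litter 3 (adjusted p = 0.0801) or litters 2 and 4 (0.16, adjusted p = 0.0741), and was kept without litter 4 (0.27, adjusted p = 0.0158).

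Notch2, on chromosome 3, was at 220, 241, 252 and 258 CPM with vehicle and 169, 184, 189 and 181 CPM with LPS+IFNγ in WT litters, and at 189, 205, 220 and 208 CPM with vehicle and 145, 187, 183 and 181 CPM with LPS+IFNγ in Nlrx1-/- litters. All stimulated libraries lay below all vehicle libraries of the genotype. The decrease was -0.43 (SE 0.05, edgeR adjusted p = 6.09e-05) in WT and -0.26 (SE 0.05, adjusted p = 0.00161) in Nlrx1-/- astrocytes on the log2 scale. Notch3, on chromosome 17, which in brain is best known from mural cells, was at 128, 107, 109 and 105 CPM with vehicle and 82.0, 80.0, 78.7 and 84.9 CPM with LPS+IFNγ in WT litters. In Nlrx1-/- litters it was at 133, 125, 103 and 135 CPM with vehicle and 82.7, 71.2, 69.4 and 81.1 CPM with LPS+IFNγ. The stimulated and vehicle libraries did not overlap in either genotype, with a log2 fold change of -0.47 (SE 0.07, edgeR adjusted p = 0.00021) in WT and -0.72 (SE 0.07, adjusted p = 9.57e-06) in Nlrx1-/- astrocytes. Of 6 mural markers, 4 were in the table, summing to 166 to 280.5 CPM in WT vehicle and 96.1 to 173 CPM in WT LPS+IFNγ libraries, and to 93.2 to 251 and 98.4 to 143 CPM in the Nlrx1-/- libraries, while Kcnj8 and Abcc9 had at most 8 reads in a library. Most of these sums was Acta2. Of the 4, 1 fell (Acta2) and 0 rose in WT, and 0 fell and 2 rose (Pdgfrb and Rgs5) in Nlrx1-/- astrocytes. With Nlrx1-/- litters 2 and 4 left out, 1 fell and 0 rose there. The part of these cells in the Notch3 values was not tested. In bulk RNA, fewer cells of a type and less RNA per cell cannot be told apart, which holds for every member.

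Both Delta-like ligands fell and the Jagged ligand did not fall. Dll1, an activating ligand on chromosome 17, was at 181, 236, 236 and 271 CPM with vehicle and 97.1, 142, 125 and 184 CPM with LPS+IFNγ in WT litters. Its values in Nlrx1-/- litters were 183, 161, 189.6 and 311 CPM with vehicle and 81.7, 63.1, 113 and 92.5 CPM with LPS+IFNγ. The WT groups overlapped at 1 library on each side, the stimulated library of litter 4 and the vehicle library of litter 1, and the Nlrx1-/- groups did not overlap. The log2 fold change was -0.78 (SE 0.13, edgeR adjusted p = 0.000771) in WT and -1.28 (SE 0.13, adjusted p = 2.43e-05) in Nlrx1-/- astrocytes. The transcript with the most Dll1 reads held 57.6% of the gene's TPM in vehicle and 58.3% in stimulated WT libraries, and 58.6% and 59.96% in those of Nlrx1-/- litters, on average, close to each other beside the fall in level.

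Dll3, on chromosome 7, a divergent Delta-like protein that stays largely inside the cell and does not activate receptors on neighboring cells, was at 70.3, 72.9, 57.2 and 60.3 CPM with vehicle and 36.4, 38.4, 28.4 and 35.7 CPM with LPS+IFNγ in WT litters. The Nlrx1-/- litters had 72.1, 67.8, 53.3 and 91.1 CPM with vehicle and 33.0, 25.7, 30.4 and 25.1 CPM with LPS+IFNγ. Stimulated and vehicle libraries were separate in both genotypes. Dll3 changed by -0.92 (log2, SE 0.14, edgeR adjusted p = 0.000308) in WT and -1.31 (SE 0.14, adjusted p = 2.43e-05) in Nlrx1-/- astrocytes.

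Jag1, an activating ligand on chromosome 2, was at 16.5, 14.5, 10.9 and 12.6 CPM with vehicle and 18.5, 16.1, 10.7 and 11.5 CPM with LPS+IFNγ in WT litters. The Nlrx1-/- litters had 19.3, 22.8, 12.2 and 17 CPM with vehicle and 33.2, 28.6, 12 and 30.5 CPM with LPS+IFNγ. The groups overlapped in both genotypes, and litter 3 was the only Nlrx1-/- litter without a higher stimulated value. The log2 fold change was 0.03 (SE 0.13, edgeR adjusted p = 0.880) in WT and 0.47 (SE 0.13, adjusted p = 0.0109) in Nlrx1-/- astrocytes. The increase in Nlrx1-/- astrocytes was not called without the litter block (0.53, adjusted p = 0.138), without litter 1 (0.38, adjusted p = 0.0623), without litter 4 (0.36, adjusted p = 0.0596), without litters 2 and 4 (0.39, adjusted p = 0.102) or without TMM factors (0.31, adjusted p = 0.0628), and kept its direction in each. In WT the value was -0.13 without TMM factors and -0.0069 and -0.0055 without litter 1 and without litter 2.

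All 4 target genes, which encode basic helix-loop-helix repressors, fell in both genotypes. Hes5, on chromosome 4, whose promoter window carries the TGGGAA matches above, was at 39.8, 62.2, 74.2 and 82.6 CPM with vehicle and 20.4, 30.7, 44 and 70.2 CPM with LPS+IFNγ in WT litters. In Nlrx1-/- litters it was at 57.1, 34.0, 69.1 and 72.0 CPM with vehicle and 16, 7.53, 31.1 and 8.53 CPM with LPS+IFNγ. The WT groups overlapped and the Nlrx1-/- groups did not. The log2 fold change was -0.75 (SE 0.24, edgeR adjusted p = 0.0275) in WT and -2.05 (SE 0.26, adjusted p = 8.71e-05) in Nlrx1-/- astrocytes, and was -1.49 (SE 0.20, adjusted p = 0.000336) in Nlrx1-/- astrocytes without litters 2 and 4. The WT call was lost without the litter block (-0.65, adjusted p = 0.259), without litter 1 (-0.67, adjusted p = 0.0972), without litter 2 (-0.65, adjusted p = 0.112) and without litter 3 (-0.74, adjusted p = 0.0849).

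Hes1, on chromosome 16, which many signals besides Notch can induce, was at 31.3, 26.6, 22.7 and 22.2 CPM with vehicle and 31.3, 19.5, 14.1 and 19.5 CPM with LPS+IFNγ in WT litters. Its values in Nlrx1-/- litters were 24.0, 32.9, 20.9 and 34.4 CPM with vehicle and 17.8, 23.6, 15.1 and 23.9 CPM with LPS+IFNγ. The groups overlapped in both genotypes, and WT litter 1 was almost level. The log2 fold change was -0.34 (SE 0.10, edgeR adjusted p = 0.0193) in WT and -0.49 (SE 0.10, adjusted p = 0.0021) in Nlrx1-/- astrocytes. Without the litter block neither was called (adjusted p = 0.339 and 0.0931), and the WT call was also lost without litter 2 (-0.29, adjusted p = 0.0907) and without litter 3 (-0.22, adjusted p = 0.104).

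Hey1, on chromosome 3, was at 49.0, 65.6, 56.9 and 66.7 CPM with vehicle and 27.9, 40.1, 37.2 and 42.0 CPM with LPS+IFNγ in WT litters, which did not overlap. In Nlrx1-/- litters it was at 50.1, 24.2, 52.0 and 36.5 CPM with vehicle and 25.3, 15.3, 30.9 and 14.3 CPM with LPS+IFNγ, which overlapped, with the vehicle libraries of litters 2 and 4 lowest. Hey1 changed by -0.71 (log2, SE 0.10, edgeR adjusted p = 0.00023) in WT and -0.95 (SE 0.10, adjusted p = 2.99e-05) in Nlrx1-/- astrocytes. Heyl, on chromosome 4, was the least abundant member, with 68 to 135 reads in WT vehicle libraries and 3 to 21 reads in WT LPS+IFNγ libraries. Its values were 2.2, 2.37, 2.90 and 2.56 CPM with vehicle and 0.39, 0.64, 0.50 and 0.079 CPM with LPS+IFNγ in WT litters, and 3.65, 0.67, 2.48 and 1.87 CPM with vehicle and 1.54, 0.11, 0.41 and 0.20 CPM with LPS+IFNγ in Nlrx1-/- litters. The WT groups did not overlap, whereas stimulated Nlrx1-/- litter 1 was above vehicle litter 2. The fitted log2 fold change was -2.80 (SE 0.49, edgeR adjusted p = 0.000925) in WT and -2.32 (SE 0.49, adjusted p = 0.00254) in Nlrx1-/- astrocytes, and these sizes rest on few reads. On log2(CPM + 1), which damps low values, the mean paired response was -1.34 in WT and -1.01 in Nlrx1-/- litters.

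**Figure D3:**
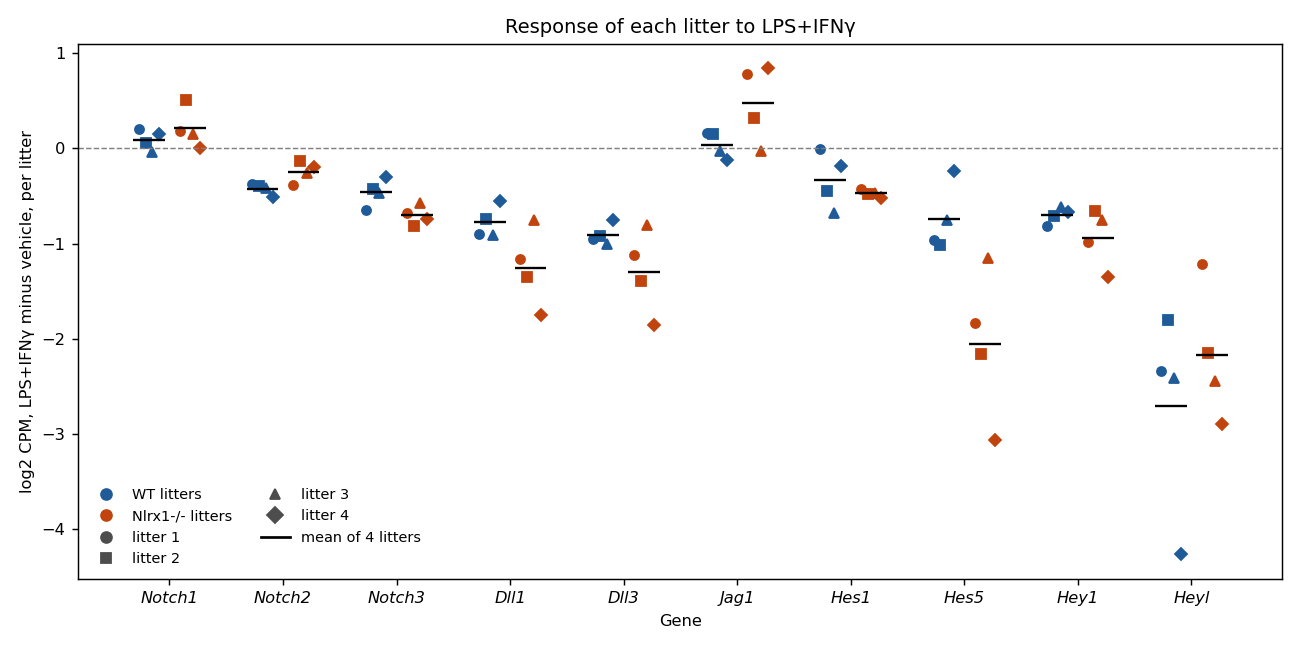
Response of each litter (log2 CPM with LPS+IFNγ minus log2 CPM with vehicle) for the 10 members, WT in blue and Nlrx1-/- in orange, with a marker shape for each litter and bars at the mean of 4 litters. For Hes5 the 4 Nlrx1-/- litters lie from -3.07 to -1.15, all below the WT litters, which lie from -1.02 to -0.23.

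The next comparison asked whether the response itself differed between the genotypes. By the interaction term 0 of the 10 members were called, as were 0 of all 16066 genes (0.00%). At an unadjusted p below 0.05, 5 members stood out with edgeR, of which Dll1, Notch3 and Hes5 had a more negative response in Nlrx1-/- astrocytes and Notch2 and Jag1 a more positive one, where 9.47% of all genes were negative and 5.89% positive at that level. By limma 0 members and 0 genes were called. By DESeq2 0 members were called, beside 1.23% of all genes as negative and 0.703% as positive. Hes5 had the largest difference, with an interaction of -1.30 (SE 0.35, edgeR adjusted p = 0.223), and it was the only member whose litter responses did not overlap between the genotypes, a pattern in which the Nlrx1-/- litters were lower for 5.25% of all genes and higher for 3.06%. Its mean response was -0.74 ± 0.36 in WT and -2.06 ± 0.80 in Nlrx1-/- litters (log2 CPM, SD, n = 4 each). Dll1 had an interaction of -0.50 (SE 0.19, adjusted p = 0.256), Dll3 of -0.39, Notch3 of -0.24 (SE 0.09, adjusted p = 0.261), Jag1 of 0.44 (SE 0.18, adjusted p = 0.291) and Notch2 of 0.18 (SE 0.07, adjusted p = 0.285).

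These differences moved with single litters. Without Nlrx1-/- litter 3, whose responses of Dll1, Dll3, Hes5 and Jag1 were nearest to those of WT litters, the interaction of Hes5 was -1.64 (edgeR adjusted p = 0.0378) and that of Dll1 -0.68 (adjusted p = 0.0464), in a fit that called 1.18% of all genes as negative and 0.767% as positive. Without litters 2 and 4 together, Hes5 was at -0.75 (adjusted p = 0.547), Dll1 at -0.20 (adjusted p = 0.726) and Dll3 at -0.06 (adjusted p = 0.922), and Notch2 was at 0.10, Notch3 at -0.17 and Jag1 at 0.35 (adjusted p from 0.683 to 0.744). By the interaction term 0 of the 8 oligodendrocyte lineage markers were called, as were 0 of all genes. Within each genotype some markers of several cell types did respond. Beside them, 20.2% of all genes fell and 23.7% rose in WT, and 24.2% fell and 25.3% rose in Nlrx1-/- astrocytes. LPS+IFNγ lowered 5 of the 8 in WT and 6 of the 8 in Nlrx1-/- astrocytes, with Pdgfra, a marker of oligodendrocyte progenitors, at -1.34 (SE 0.13, adjusted p = 1.28e-05) in WT and -1.58 (SE 0.13, adjusted p = 3.86e-06) in Nlrx1-/- astrocytes, and Mbp at -1.23 and -2.21. Of 3 proliferation markers 1 fell in WT and 2 in Nlrx1-/- astrocytes, of 3 ependymal markers 1 and 2 fell, and of 6 neuronal and neuroblast markers 2 rose and 2 fell in WT and 2 rose and 3 fell in Nlrx1-/- astrocytes. Of 8 astrocyte markers 3 rose and 2 fell in WT, and 2 rose and 3 fell in Nlrx1-/- astrocytes. Of 4 fibroblast markers 1 and 2 fell. Without Nlrx1-/- litters 2 and 4, 5 of the 8 oligodendrocyte lineage markers, 2 of the 3 proliferation markers and 1 of the 6 neuronal markers fell in Nlrx1-/- astrocytes. In that fit 1 of the 8 astrocyte markers rose and 4 fell, and 1 of the 4 fibroblast markers fell. It called 15.6% of all genes as falling and 18.2% as rising in Nlrx1-/- astrocytes. The part of these cells in the responses of Dll1, Dll3 and Hes5 was not tested.

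The genotypes were also compared without stimulation. Between Nlrx1-/- and WT vehicle cultures 0 of the 10 members and 0 of all genes (0.00%) were called by edgeR, and the median of the members was -0.14 against 0.00 over all genes. At an unadjusted p below 0.05, Notch1 (-0.29), Notch2 (-0.25) and Hey1 (-0.56) were lower in Nlrx1-/- cultures, where 8.57% of all genes were lower and 11.0% higher at that level, and by DESeq2 0 members passed adjustment, beside 1.84% of all genes lower and 3.03% higher. Without Nlrx1-/- litters 2 and 4 the difference was -0.28 for Notch1, -0.26 for Notch2 and -0.23 (adjusted p = 0.748) for Hey1. Notch2 was the 1 member whose libraries did not overlap, with the highest Nlrx1-/- vehicle library at 220 CPM just under the lowest WT vehicle library, and 3.43% of all genes were separated in this direction and 6.02% in the other. Its difference was -0.25 (SE 0.08, adjusted p = 0.137).

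With LPS+IFNγ again 0 members were called between the genotypes by edgeR, with a median of -0.15 against -0.01 over all genes, where 2.38% of all genes were lower and 2.65% higher in Nlrx1-/- cultures. At an unadjusted p below 0.05, 3 members were lower and 1 higher, against 14.9% of all genes lower and 13.5% higher at that level. Hes5 differed by -1.40 (SE 0.44, edgeR adjusted p = 0.0642), Hey1 by -0.79 (SE 0.26, adjusted p = 0.0701), Dll1 by -0.66 (SE 0.23, adjusted p = 0.0802) and Jag1 by 0.86 (SE 0.28, adjusted p = 0.0671). In each of these the libraries of the genotypes overlapped, as they did for all members, while 6.23% of all genes were separated downward and 7.09% upward, and Nlrx1-/- litter 3 was nearest to WT. The other 6 members differed by -0.30 (Dll3) to 0.50 (Heyl), and the receptors by -0.19, -0.07 and -0.11 for Notch1, Notch2 and Notch3.

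The same 4 members were near the threshold, and the choice of fit decided the call. DESeq2 called Hes5, Hey1 and Dll1 lower and Jag1 higher (adjusted p = 0.0332, 0.0212, 0.0316 and 0.0180), and called 7.69% of all genes lower and 7.88% higher. The same 4 were called by edgeR without Nlrx1-/- litter 3 (adjusted p = 0.00763, 0.0124, 0.0291 and 0.00405), where 11.3% of all genes were lower and 9.20% higher. Without WT litter 1, edgeR called Hes5 and Dll1 lower (adjusted p = 0.0380 and 0.0438), beside 4.70% of all genes lower and 3.86% higher. Limma on the deposited log2 CPM called Hes5 alone, with 4.41% of all genes lower and 4.40% higher. Limma-voom with litter as a random block called Hey1 alone, with 4.11% lower and 3.65% higher, and the same without that block called 0 members. Without Nlrx1-/- litters 2 and 4 the differences were -0.82 for Hes5, -0.40 for Hey1, -0.50 for Dll1 and 0.66 for Jag1, with adjusted p from 0.395 to 0.487. That edgeR fit called only 0.012% of all genes lower and 0.00602% higher. Markers of several cell types moved alongside. In stimulated Nlrx1-/- cultures 1 of 8 oligodendrocyte lineage markers (Pdgfra, -0.83, adjusted p = 0.0396), 2 of 8 astrocyte markers (Gja1, -1.33, and Aldoc, -0.62, adjusted p = 0.0472 and 0.0455) and 1 of 3 ependymal markers (Cfap126, -0.81, adjusted p = 0.0489) were lower than in WT, and the endothelial marker Flt1 was higher (1.82, adjusted p = 0.0396). On the deposited log2 CPM, Flt1 was at 1.66 to 2.56 in stimulated Nlrx1-/- libraries and 0.65 to 1.54 in stimulated WT libraries. That is a smaller difference than the fitted 1.82. In the fit without litters 2 and 4, which called 0.012% of all genes lower and 0.00602% higher, none of the markers named was called by edgeR. With the 8 stimulated libraries fitted alone, edgeR called 0 of all genes lower or higher, and so none of these markers. The part of these cells in the values of the 4 members was not tested.

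**Figure D4:**
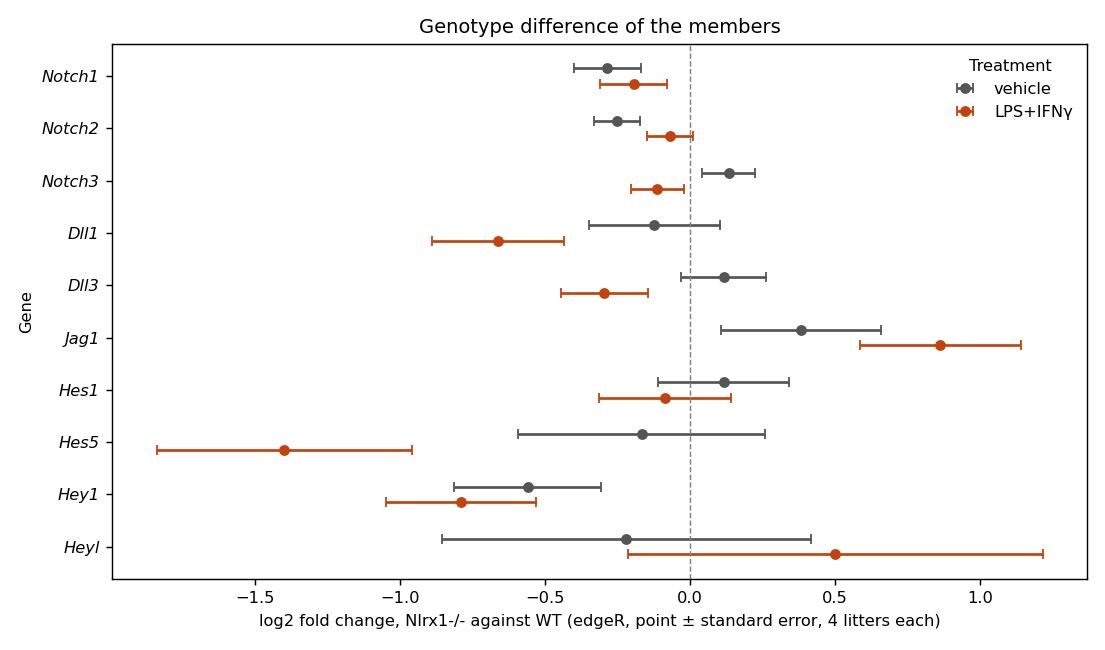
Log2 fold change of each member in Nlrx1-/- against WT astrocytes, with vehicle in gray and with LPS+IFNγ in orange, as the edgeR estimate ± standard error with 4 litters in each genotype. With LPS+IFNγ Hes5 (-1.40), Hey1 (-0.79) and Dll1 (-0.66) lie left of 0 and Jag1 (0.86) right of it, and 0 of the values shown passed an adjusted p of 0.05.

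Of 53 other genes of the pathway, ordered here by role, 51 were tested. LPS+IFNγ raised 6 and lowered 15 of them in WT, and raised 8 and lowered 20 in Nlrx1-/- astrocytes (edgeR), with medians of -0.09 and -0.16. Of all genes, 23.7% rose and 20.2% fell in WT, and 25.3% rose and 24.2% fell in Nlrx1-/- astrocytes. Without Nlrx1-/- litters 2 and 4, 5 rose and 13 fell in Nlrx1-/- astrocytes, beside 18.2% and 15.6% of all genes. Without TMM factors 3 rose and 28 fell in WT, beside 15.1% and 33.5% of all genes, and 3 rose and 31 fell in Nlrx1-/- astrocytes, beside 16.5% and 36.6%. The gene sums of 35 of the 51 were within 0.05 log2 of the deposited CPM in every library, and 16 were not, since some of their transcripts could not be paired with a symbol. The counts on the deposited log2 CPM by limma were similar, with 7 up and 16 down in WT and 8 up and 21 down in Nlrx1-/- astrocytes.

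Further target genes and ligands were among the largest decreases. In WT, the log2 fold change was -2.02 (SE 0.35, edgeR adjusted p = 0.000967) for Dll4, a ligand known from endothelium, -1.49 (SE 0.21, adjusted p = 0.000262) for the repressor Hey2, and -1.25 (SE 0.13, adjusted p = 3.55e-05) for Nrarp, a feedback inhibitor that Notch itself induces. In Nlrx1-/- astrocytes it was -1.81 (SE 0.14, adjusted p = 2.63e-06) for Nrarp, -1.91 (SE 0.20, adjusted p = 2.49e-05) for Mfng, a Fringe glycosyltransferase that modifies the receptors, and -2.77 (SE 0.66, adjusted p = 0.00528) for Neurl1a, a ubiquitin ligase. The gene sums of Mfng, with 59 to 563 reads per library, differed from the deposited CPM by -0.61 to -0.012 log2 across libraries. The Neurl1a value rests on 0 to 207 reads per library. On the deposited log2 CPM, which hold all of its transcripts, Neurl1a was at -1.35 (limma, adjusted p = 0.0161). Dll4 and Hey2 also fell in Nlrx1-/- astrocytes, with log2 fold changes of -1.77 and -1.40. Of 6 further Hes, Hey and target genes, 4 were tested, and 2 fell in WT (Hey2 and Nrarp) and 3 in Nlrx1-/- astrocytes (Hes6, Hey2 and Nrarp). Of the 6 endothelial markers only Kdr and Flt1 were in the table, with a summed level of at most 10.0 CPM, and the other 4 had at most 4 (Cldn5) to 38 (Cdh5) reads in a library. Kdr fell beside Dll4, with log2 fold changes of -2.54 (SE 0.26, adjusted p = 2.40e-05) in WT and -1.78 (SE 0.26, adjusted p = 0.000272) in Nlrx1-/- astrocytes. The edgeR estimate for Flt1 was -0.43 (adjusted p = 0.457) in WT and 1.71 (adjusted p = 0.00631) in Nlrx1-/- astrocytes. On the deposited log2 CPM, Flt1 was at -0.038 to 0.95 in WT vehicle and 0.65 to 1.54 in WT LPS+IFNγ libraries. In Nlrx1-/- libraries it was at -0.0065 to 1.08 and 1.66 to 2.56. The deposited values thus ran higher with LPS+IFNγ in both genotypes, opposite to the fitted -0.43 in WT. The cause was not tested. With litters 2 and 4 left out of the Nlrx1-/- group, 4 of the endothelial markers passed the count filter, and 1 fell and 0 rose in Nlrx1-/- astrocytes. The part of endothelial cells in the Dll4 values was not tested.

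The other genes of the pathway are given by role. Of 10 genes for receptor cleavage, 2 rose and 2 fell in WT, and 4 rose and 3 fell in Nlrx1-/- astrocytes. Among them Furin, which processes the receptor before it reaches the surface, rose by 0.30 and 0.43 (edgeR adjusted p = 0.00164 and 0.000109), and Aph1a, a γ-secretase subunit, by 0.33 and 0.21 (adjusted p = 0.000152 and 0.0025). Without TMM factors Furin in WT (0.13) and Aph1a in Nlrx1-/- astrocytes (0.05) were not called. Aph1b and Aph1c, near-identical copies whose reads Salmon may divide between them with error, both fell in both genotypes. Of 7 genes of the nuclear complex, 1 rose and 3 fell in WT, and 1 rose and 1 fell in Nlrx1-/- astrocytes. Rbpj, which encodes the DNA-binding partner, changed by -0.38 (SE 0.06, adjusted p = 0.000564) in WT and -0.12 (SE 0.06, adjusted p = 0.120) in Nlrx1-/- astrocytes. Kat2b, a histone acetyltransferase recruited to the complex, rose by 0.62 (SE 0.08, adjusted p = 0.000113) in WT and 0.76 (SE 0.08, adjusted p = 2.07e-05) in Nlrx1-/- astrocytes. Of 8 co-repressor genes, 1 rose and 4 fell in WT, and 0 rose and 3 fell in Nlrx1-/- astrocytes. Of 8 genes for inhibitors and turnover, 2 rose and 1 fell in WT, and 3 rose and 3 fell in Nlrx1-/- astrocytes, with Dtx4, a Deltex ubiquitin ligase of the receptor, the most increased at 0.84 (SE 0.05, adjusted p = 6.35e-07) and 0.72 (SE 0.05, adjusted p = 1.75e-06). Of the 5 glycosylation genes 1 and 2 fell, of the 4 genes for ligand endocytosis 1 and 3 fell, and of 4 other ligand genes 1 and 2 fell, in WT and Nlrx1-/- astrocytes respectively, and 0 rose in these roles. Notch4 passed no test.

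**Figure D5:**
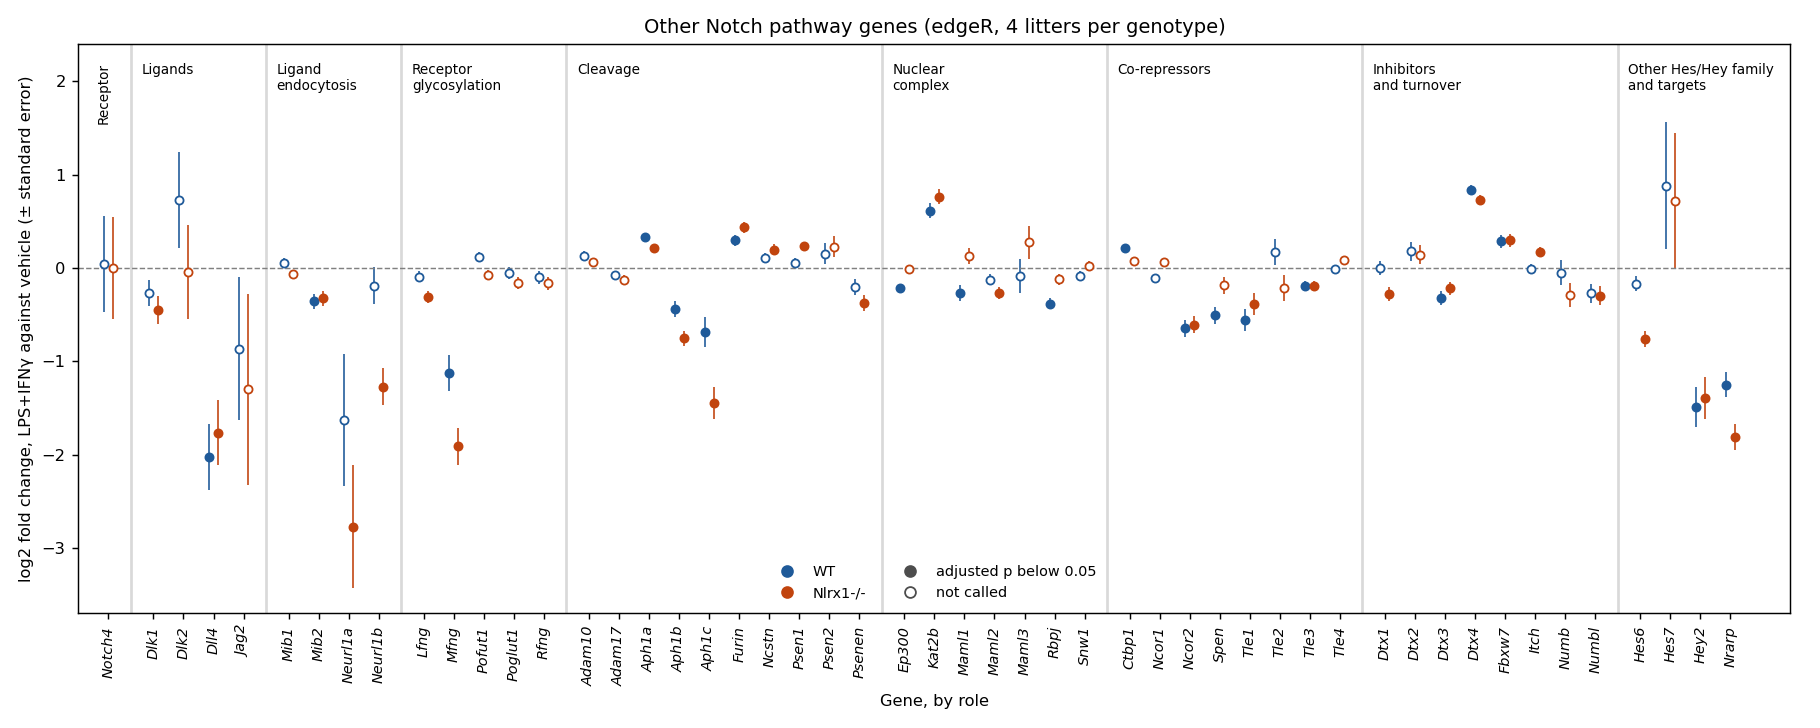
Log2 fold change of the 51 other pathway genes with LPS+IFNγ against vehicle, WT in blue and Nlrx1-/- in orange, as the edgeR estimate ± standard error and grouped by role, with filled points for an adjusted p below 0.05. Dll4, Hey2, Nrarp and Mfng lie lowest among the filled points of WT, from -2.02 to -1.13, and Neurl1a at -2.77 lies lowest in Nlrx1-/- astrocytes.

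Between the genotypes, 0 of the 51 were called by the interaction term and 0 in vehicle cultures. At an unadjusted p below 0.05, 16 were past the threshold for the interaction (9 negative), beside 9.47% of all genes negative and 5.89% positive. In vehicle cultures 7 were (5 negative), beside 8.57% negative and 11.0% positive. DESeq2 called 2 as more negative in Nlrx1-/- astrocytes for the interaction, beside 1.23% of all genes negative and 0.703% positive, and 1 as higher in vehicle cultures, beside 3.03% higher and 1.84% lower. With LPS+IFNγ, 5 of the 51 were lower and 0 higher in Nlrx1-/- astrocytes, beside 2.38% and 2.65% of all genes. The largest were Mfng at -1.15 (SE 0.25, edgeR adjusted p = 0.0396), Neurl1b, a ubiquitin ligase that acts on ligands, at -1.09 (SE 0.27, adjusted p = 0.0434) and Aph1c at -0.99 (SE 0.22, adjusted p = 0.0396), with Hes6, a relative of the Hes repressors that counters Hes1, and Aph1b as the others. This count was 0 without WT litter 2, 3 or 4, without Nlrx1-/- litter 2 or 4, without both and with the 8 stimulated libraries fitted alone, in fits that called at most 0.0368% of all genes lower. It was 1 without Nlrx1-/- litter 1, where 0.442% of all genes were lower, and 3 with limma-voom, where 1.16% were. It was 11 without Nlrx1-/- litter 3, where 11.3% were. The gene sums of Mfng differed from the deposited CPM by -0.61 to -0.012 log2 across libraries, which limits its value.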

How the data were processed

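The 10 members and the gene lists were chosen with earlier results of these data known. Reads from 16 libraries (4 litters per genotype, vehicle and LPS+IFNγ) were quantified by the authors with Salmon 1.7.0. The authors deposited an expected count per transcript and library, which is estimated and not normalized, with effective lengths, and a TPM value, which is scaled for transcript length and library depth. The authors also deposited CPM divided by TMM-adjusted library sizes, and the same values as log2 CPM, to which a prior count was added. Groups and replicate numbers were taken from the labels, and the methods of the study give litter as the biological replicate. Libraries of a genotype with the same replicate number were taken to be from the same litter.

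Expected counts were summed per gene over 106440 transcripts paired with a symbol, which held 96.7% to 97.3% of reads, and rounded. All members had 3 or more reads in each library. The quasi-likelihood test of edgeR 4.0.16 (R 4.3.3) was used with TMM factors and offsets for transcript length. Of the genes, 16066 passed filterByExpr (minimum count 10), and p-values were adjusted over all of them by Benjamini-Hochberg, with calls below 0.05. Responses and their interaction with genotype used litter as the replicate block. The pairing follows the replicate numbers in the labels, and the 2 libraries of a litter deviated together from their group means (Pearson r across genes from 0.07 to 0.35). Genotypes were compared within a treatment in a fit of all 4 groups that had no litter terms, as genotype is fixed within a litter. This fit counted the 2 libraries of a litter as independent when the spread was estimated. With the 8 stimulated libraries fitted alone, 0 genes were called between the genotypes. Fits were tested on simulated data first. Alternatives used DESeq2 1.42.0, limma 3.58.1, other normalization, filters and blocks, and each litter left out. Leaving out Nlrx1-/- litters 2 and 4 together and leaving out the TMM factors were chosen after seeing the data. The pathway genes named are the 3 most increased and 3 most decreased calls per comparison at a mean of at least 1 CPM, together with calls named for their role, which were chosen after their values were seen. Promoter windows came from RefSeq (GRCm38.p6) and were matched to GRCm39 exactly. Plots used matplotlib 3.10.9. The result of the neural progenitor marker list is not reported here.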

Additional observations from a re-analysis of the deposited data

Results flagged for a closer look

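Among 60 sets of 4 values examined for the members (the levels in each group and the litter responses of each genotype), 2 had 1 value far from the other 3, where chance alone gives about 1 in 20. Notch2 was at 7.18 log2 CPM in the stimulated library of Nlrx1-/- litter 1, below the other stimulated Nlrx1-/- libraries. Jag1 was at 3.59 log2 CPM in the stimulated library of Nlrx1-/- litter 3, also below the others. No member had a response that differed between the genotypes by the interaction test with all litters.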

How the results depend on the processing

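The 8 decreases with LPS+IFNγ kept their direction in both genotypes under every alternative run, and the count of 8 was within 1.5 times in each. The count of 2 members raised in Nlrx1-/- astrocytes was 1 with RLE normalization, 0 without TMM factors, 0 with no replicate block, 0 without Nlrx1-/- litters 2 and 4, and 0 to 1 when 1 litter was left out. The count of 0 members more negative in Nlrx1-/- astrocytes by interaction was 0 to 2 with 1 litter left out. For Nlrx1-/- against WT with LPS+IFNγ, the count of 0 higher was 1 with DESeq2, 1 with the replicate block and 0 to 1 with 1 litter left out, and the count of 0 lower was 3 with DESeq2, 3 with the replicate block, 1 with limma on the deposited log2 CPM, 1 with limma-voom and litter as a random block, and 0 to 3 with 1 litter left out. The cause was not tested. In this comparison the replicate block ties WT and Nlrx1-/- litters by number alone, since they are different litters. That fit called 7.42% of all genes lower and 6.31% higher. Same-numbered libraries of a treatment correlated at -0.089 to 0.18 in their deviations from the group means (across genes), and 3 of 8 WT libraries correlated best with their own number. The replicate block changed no other call of a member beyond those given in the report.

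Signs changed only for values that were not called. Without TMM factors the WT response was -0.079 for Notch1 and -0.13 for Jag1. Without Nlrx1-/- litters 2 and 4 the vehicle difference was -0.062 for Dll3, -0.20 for Hes1 and 0.28 for Heyl. With 1 litter left out, the WT response of Jag1 was -0.0069 to 0.086, the interaction of Heyl -0.010 to 0.83, the vehicle difference -0.34 to 0.020 for Hes5, -0.60 to 0.078 for Heyl and -0.025 to 0.23 for Dll3, and the stimulated difference -0.24 to 0.16 for Hes1, -0.11 to 0.011 for Notch2 and -0.70 to 0.83 for Heyl. Few reads, from 3 to 135 per library, limit the precision of Heyl.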
